A study of Danio rerio with 6 samples.

Results

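The heat shock protein and DnaJ genes are the genes of zebrafish heart whose symbols begin with *hspa*, *hspb*, *hspd*, *hspe*, *hsph*, *hsp* and a number, or *dnaj*. Membership follows from the symbols alone, in lower case as listed, and 77 of the 29978 genes listed carry such a symbol. The group itself was chosen with earlier results of these data known. They comprise 4 *HSP90* genes, 10 *HSP70* genes, 3 *HSP110* genes, 9 small heat shock protein genes, both genes of the mitochondrial chaperonin, *hspbp1* and *hspbap1*, and 47 DnaJ genes (5 of type A, 16 of type B and 26 of type C). The symbols *dnajb12b*, *dnajb9b* and *dnajc7* are each given to more than 1 gene identifier, and these are told apart here by their Ensembl identifiers. Current gene tables name *hspb11* (ENSDARG00000002204) *hspb9l*, and the symbol of the files is kept.

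RNA was sequenced from 6 pools of 30 dissected hearts, 3 pools from embryos at 48 h post-fertilization (hpf) and 3 from embryos at 56 hpf, the stages at which the atrioventricular valve begins to form. The labels mark every library as con and name no treatment at either stage. Per the methods of the study, all animals received phenylthiourea, which keeps pigment from forming. The sample labels give the AB line, whereas the methods of the study give *Tg(myl7:EGFP)* embryos, in which a promoter of the myocardium drives the fluorescent protein, and the descriptions of the library preparation also differ between the sources. A pool holds the whole dissected heart, so myocardium, endocardium, blood and any adhering tissue are measured together. Fewer cells of a type and less RNA per cell cannot be told apart in such pools.

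Heat shock proteins are molecular chaperones, which bind unfolded proteins and help them to fold, to cross membranes or to be degraded. HSP70 binds and releases its clients in a cycle driven by ATP. DnaJ proteins bring clients to HSP70 and trigger its hydrolysis of ATP, and HSP110 proteins exchange its nucleotide. HSP90 acts later on kinases, steroid receptors and, with Unc45b and Smyd1b, on the myosin of striated muscle, while small heat shock proteins hold unfolded clients without ATP and several of them are abundant in muscle. Some members are made at all times and others after heat or proteotoxic stress through heat shock factor 1, and members of the endoplasmic reticulum (ER) answer to the unfolded protein response.

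Reads counted on genes numbered between 14369087 and 26942838 per library. A gene's normalised count is the number of its reads over the size factor of that library, and 3 reads, the smallest count taken to show a gene, correspond to between 2.13 and 4.0 normalised counts, for counting error only. Fold changes compare 56 with 48 hpf on the log2(normalised count + 1) scale, which understates changes of low genes, and are fitted with limma over all 20805 genes tested, with the replicate number as a block and p-values adjusted over all genes tested. The tissue was checked with lists of marker genes. The 11 measured myocardial markers summed to between 495497 and 1239270 normalised counts at 48 hpf and between 451743 and 516960 at 56 hpf, with a median log2 fold change of -0.76 and 0 of 11 past the threshold. The endocardial markers had a median of -0.43 (0 of 9). Of the markers of other tissues, 15 of 22 for skeletal muscle and 5 of 12 for cartilage were higher at 56 hpf, and 6 of 12 for blood were lower (adjusted p below 0.05), while 0 of 13 for liver and yolk, 0 of 9 for neural tissue, 0 of 11 for epidermis and 0 of 1 for lens and eye passed. The epidermal markers nevertheless had a median log2 fold change of 1.37, with 11 of 11 positive, and summed to between 148358 and 402966 normalised counts at 48 hpf and between 440484 and 760034 at 56 hpf. The liver and yolk markers summed to between 7472 and 53640 at 48 hpf and between 4719 and 116780 at 56 hpf, with replicate 2 the lowest pool at both stages. These counts of markers depended on single pools and on how many genes a fit called, 1.08% of all genes tested with all pools. Without the replicate 1 pair the fit called 10.9% of all genes. In it 10 of 11 epidermal, 7 of 11 myocardial, 3 of 9 endocardial and 3 of 9 neural markers passed. So did 16 of 22 skeletal muscle, 8 of 12 cartilage and 9 of 12 blood markers. Without the replicate 2 pair 0.255% of all genes passed, with 9 of 22 skeletal muscle, 1 of 12 cartilage and 1 of 12 blood markers. Without the replicate 3 pair 2.75% of all genes passed, with 11 of 12 blood markers. The counts without a pair take markers higher and lower at 56 hpf together. Chaperone genes are used by all of these tissues, and the part of these differences in the values below was not tested.

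No heat shock protein or DnaJ gene passed the test between the stages. Reads were too few to test *dnajb12b* (ENSDARG00000008312) and *dnajc22*, and of the 75 members tested, 0 had an adjusted p below 0.05 (limma), where 225 of all 20805 genes tested did, 1.08% (0.87% higher and 0.211% lower at 56 hpf). The smallest adjusted p of a member was 0.101. With the reads recovered from the values, the quasi-likelihood test of edgeR also called 0 members, where it called 0.75% of all genes. The likelihood ratio test of edgeR called 3 members (*dnajc5gb*, *dnajc6* and *hspb6*, all higher at 56 hpf) and 8.37% of all genes, 5.79% as higher. DESeq2 called 2 (*dnajc5gb* and *dnajc6*, both higher) and 7.22% of all genes, 5.28% as higher. Without adjustment, 6 of 75 members, 8%, had a p below 0.05 in the limma fit, 4 of them higher and 2 lower at 56 hpf, beside 18.6% of all genes (11.1% higher and 7.42% lower). The 3 pools at 48 hpf and the 3 at 56 hpf did not overlap for 12 of 75 members, 16%, of which 7 were higher and 5 lower at 56 hpf, beside 24.4% of all genes (13.1% higher and 11.3% lower). Both shares lay below those of all genes tested. With 3 pools against 3, a two-sided exact permutation test of a single gene cannot give a p below 0.1.

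The members' fold changes were small in most cases. The fitted log2 fold change was within 0.5 of zero for 55 of 75 members, 73.3%, beside 60.7% of all genes tested. The median was -0.10, beside -0.01 for all genes, and 31 of 75, 41.3%, were positive, beside 49.2% of all genes. These signs lean on the scale. With the size factors of the deposited values the median of all genes moved to 0.11 and that of the members to 0.03. On that scale 43 of 75 members, 57.3%, were positive, beside 58.6% of all genes, so the shift was shared by genes at large. The 95% interval of the fold change lay wholly within 2-fold of no change for 39 of 75 members, 52%, and of 36.8% of all genes. For the other members the interval reached a change of 2-fold or more, so a change of that size remains within the error of these pools.

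**Figure D1:**
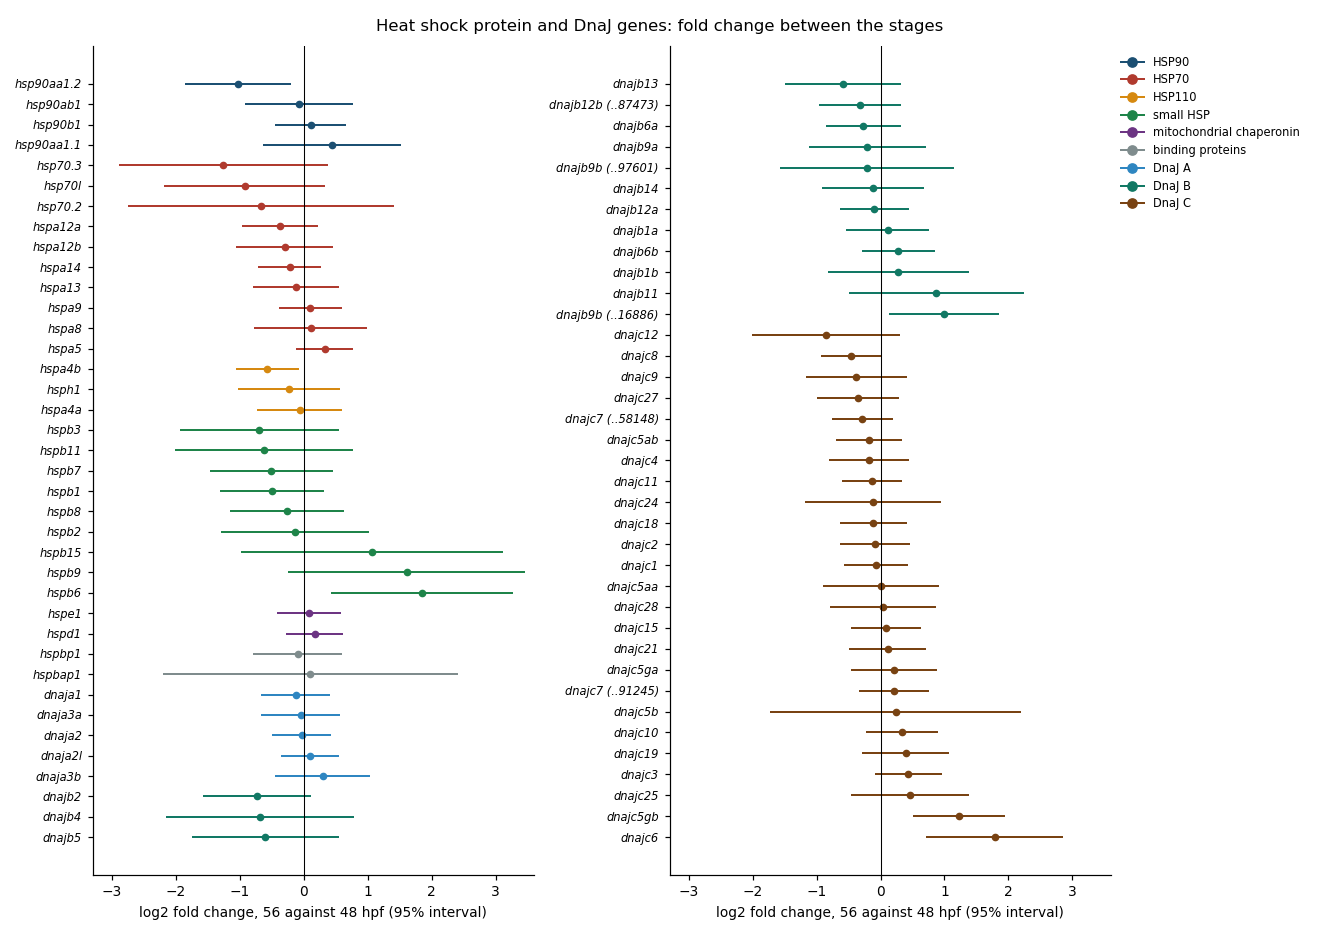
Log2 fold change of the 75 members tested, 56 against 48 hpf (points), with the 95% interval of the limma fit (bars), coloured by class and ordered within each class; the last digits of the identifier tell apart genes that share a symbol. Most points sit within 0.5 of zero, and the intervals of *hspb6*, *dnajc6*, *dnajc5gb*, *dnajb9b* (ENSDARG00000016886), *hspa4b* and *hsp90aa1.2* are those that do not reach zero.

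Calls depended on the pair of pools labelled replicate 1. Without that pair, 8 of 75 members passed the threshold, 10.7%, but so did 10.9% of all genes tested. Of these 8, *dnajc5gb* was higher at 56 hpf, as were 7.33% of all genes, and *hspb1*, *hspb7*, *hspb11*, *hspa12b*, *hsp90aa1.2*, *dnajb2* and *dnajc12* were lower, as were 3.59% of all genes. Without the replicate 3 pair, *dnajb11* alone passed among the members, where 2.75% of all genes did, and without the replicate 2 pair 0 members passed, where 0.255% of all genes did. Fits without a pair keep the block and so leave little with which to estimate a gene's own variance. Their p-values, here and below, rest largely on the variance shared across genes. The values of these genes in each pool follow with their classes, given in the order of replicates 1, 2 and 3 at each stage.

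The 4 *HSP90* genes gave no call and no common direction. The constitutive cytosolic gene *hsp90ab1* (ENSDARG00000029150) had 47726, 43514 and 35187 normalised counts at 48 hpf and 34208, 45480.0 and 40445 at 56 hpf. The stages overlapped, and the log2 fold change was -0.07 (SE 0.35, 95% interval -0.90 to 0.76, adjusted p = 0.935), with a sign that turned positive on the deposited scale. The ER member *hsp90b1*, also called Grp94, had 2437, 1968 and 2613 normalised counts at 48 hpf and 2245, 3007 and 2330.1 at 56 hpf, again overlapping (log2 fold change 0.11, SE 0.23, adjusted p = 0.834).

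The pair of *HSP90* alpha genes, which lie side by side in the RefSeq annotation of the GRCz12tu assembly with no coding gene between them, did not follow one another. *hsp90aa1.1* (ENSDARG00000010478), which zebrafish muscle needs to fold myosin, had 392, 705 and 1111 normalised counts at 48 hpf and 1228, 1086 and 576 at 56 hpf. Its pools spanned 2.83-fold at 48 hpf and 2.13-fold at 56 hpf, wider than the difference between the stages (log2 fold change 0.44, SE 0.45, adjusted p = 0.639). Its neighbour *hsp90aa1.2* (ENSDARG00000024746) had 283, 297 and 243 normalised counts at 48 hpf and 259, 119 and 76.6 at 56 hpf. The pools at 48 hpf lay close together, whereas at 56 hpf replicate 1 stayed at the level of 48 hpf and the other pools were lower. The log2 fold change was -1.03 (SE 0.34, 95% interval -1.85 to -0.21, adjusted p = 0.186), with an unadjusted p of 0.0207. The call turned on the replicate 1 pools, since without that pair the log2 fold change was -1.48 with an adjusted p of 0.0243, and without the 56 hpf pool alone, fitted with no block, it was -1.50 with an adjusted p of 0.0371 (3.73% of all genes passed in that fit). Per the methods only uniquely aligned reads were kept, so any reads that fit both genes of the pair would be missing. Their sequences were not compared here, and the split between them is uncertain.

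**Figure D2:**
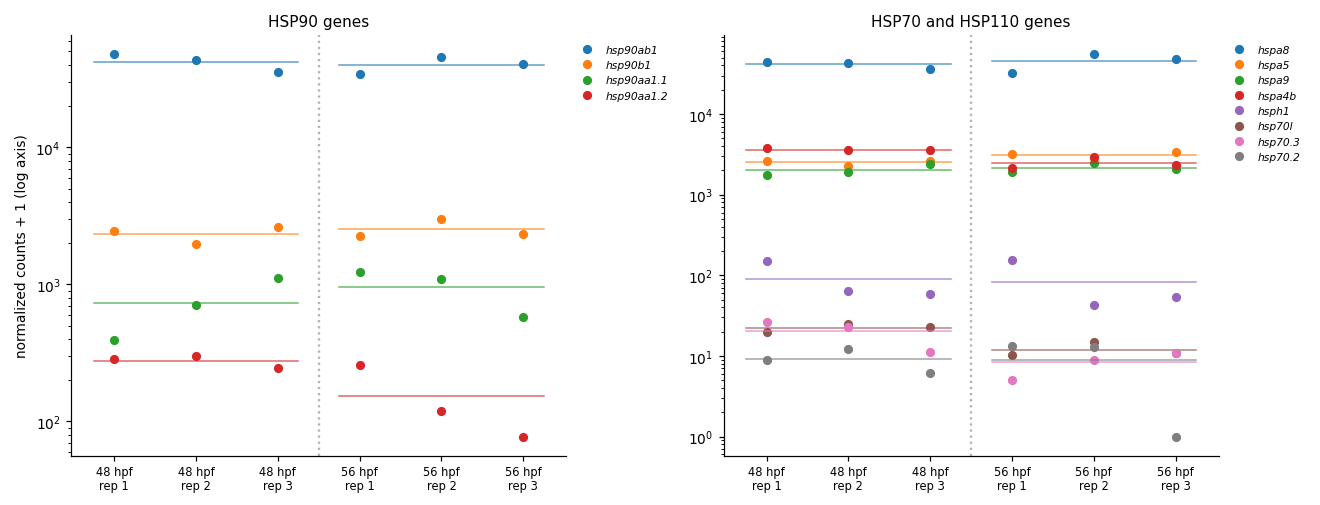
Normalised counts + 1 (log axis) of the *HSP90* genes (left) and of *HSP70* and *HSP110* genes (right) in each of the 6 pools; bars mark the mean of the 3 pools of a stage. *hspa4b*, *hsp70l*, *hsp70.3* and *hspa5* have stages that do not overlap, while the pools of *hsp90aa1.1* spread more within a stage than between stages.

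The inducible *HSP70* genes were counted with few reads at both stages. *hsp70l* (ENSDARG00000055723), the gene used in zebrafish as the standard readout of heat shock, had 18.7, 24.1 and 21.6 normalised counts at 48 hpf and 9.13, 13.8 and 9.99 at 56 hpf. Every pool at 56 hpf lay below every pool at 48 hpf (log2 fold change -0.92, SE 0.52, adjusted p = 0.391). *hsp70.3* had 25.3, 22.0 and 10.2 normalised counts at 48 hpf and 4.06, 7.88 and 9.99 at 56 hpf, with 56 hpf again below 48 hpf but by less than 1 normalised count between the nearest pools (log2 fold change -1.26, SE 0.68, adjusted p = 0.373). *hsp70.2*, its neighbour in the RefSeq annotation with no coding gene between, had 8.0, 11.4 and 5.08 normalised counts at 48 hpf and 12.2, 11.8 and 0 at 56 hpf. The 0 in the last pool allows up to 2.5 normalised counts there, and the stages overlapped (log2 fold change -0.67, SE 0.87, adjusted p = 0.723). These 3 genes were counted with between 0 and 34 reads in a pool, and none passed the threshold. Per the methods only uniquely aligned reads were kept, so any reads that fit more than 1 of these genes would be missing. Their sequences were not compared here, and their levels and the split between them are uncertain.

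The constitutive *HSP70* genes were counted with far more reads and held no call. *hspa8* (ENSDARG00000068992), the main cytosolic HSP70 of unstressed cells, had 43604, 43479 and 36503 normalised counts at 48 hpf and 32202, 55118 and 48752 at 56 hpf. The lowest and the highest of the 6 pools were both at 56 hpf, and the stages overlapped (log2 fold change 0.11, SE 0.37, adjusted p = 0.904). Between 0.162 and 0.253% of a library's reads were counted on *hspa8*, and between 0.172 and 0.249% on *hsp90ab1*. *hspa9*, the HSP70 of the mitochondrial matrix, had 1731, 1892 and 2402 normalised counts at 48 hpf and 1892, 2494 and 2074 at 56 hpf, with overlapping stages (log2 fold change 0.10, SE 0.20, adjusted p = 0.82).

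*hspa5*, which encodes the ER chaperone BiP, had 2611, 2267 and 2636 normalised counts at 48 hpf and 3237, 2819 and 3364 at 56 hpf. All pools at 56 hpf were above all pools at 48 hpf, with a log2 fold change of 0.33 (SE 0.18, 95% interval -0.11 to 0.76, adjusted p = 0.383). *hspa14*, which encodes a ribosome-associated member, had 404, 427 and 495 normalised counts at 48 hpf and 357, 386 and 392 at 56 hpf, and here all pools at 56 hpf were below those at 48 hpf (log2 fold change -0.22, SE 0.20, adjusted p = 0.596). *hspa12b*, a divergent member that is enriched in endothelial cells in mammals, had 2097, 3412 and 4336 normalised counts at 48 hpf and 3219.9, 2214 and 2335 at 56 hpf. Its lowest and highest pools were both at 48 hpf (log2 fold change -0.30, SE 0.31, adjusted p = 0.648), and without the replicate 1 pair its log2 fold change was -0.76 with an adjusted p of 0.0450. The endocardial markers were likewise lowest in replicate 1 and highest in replicate 3 at 48 hpf for 6 of 9 genes, and their part in the values of *hspa12b* was not tested. *hspa12a* and *hspa13* had log2 fold changes of -0.37 and -0.12, with overlapping stages.

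Of the *HSP110* genes, which encode exchange factors of HSP70, *hspa4b* (ENSDARG00000018989) differed most. It had 3759.8, 3532 and 3582 normalised counts at 48 hpf and 2138, 2936 and 2318 at 56 hpf. The pools at 48 hpf agreed within 1.06-fold, and all pools at 56 hpf were below them. The log2 fold change was -0.57 (SE 0.20, 95% interval -1.05 to -0.09, adjusted p = 0.207), with an unadjusted p of 0.0265, which does not pass after adjustment. Its fold change kept this sign in all 9 fits that left out pools, from -0.72 to -0.44. Its paralogue *hspa4a* had 516, 429 and 606 normalised counts at 48 hpf and 427, 666 and 412 at 56 hpf, with overlapping stages and a fold change whose sign turned positive on the deposited scale (log2 fold change -0.06, SE 0.27, adjusted p = 0.925). *hsph1*, a stress-inducible member in mammals, had 149, 62.5 and 58.4 normalised counts at 48 hpf and 153, 41.4 and 53.3 at 56 hpf. Replicate 1 was the highest pool at both stages, over 2-fold above the others (log2 fold change -0.23, SE 0.33, adjusted p = 0.755).

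The 9 small heat shock protein genes held no call and spread widely between the pools of 48 hpf. *hspb7* (ENSDARG00000011538), a member made mainly in heart and muscle, had 6069, 11508 and 16648 normalised counts at 48 hpf and 9704, 6728 and 6211 at 56 hpf. At 48 hpf replicate 3 was 2.74-fold above replicate 1, and the pools at 56 hpf lay within that range (log2 fold change -0.51, SE 0.40, adjusted p = 0.537). *hspb1*, which encodes Hsp27, had 4962, 7516 and 10827 normalised counts at 48 hpf and 7025, 3775 and 5451 at 56 hpf, with the same order of pools at 48 hpf (log2 fold change -0.49, SE 0.34, adjusted p = 0.472). *hspb8*, whose product works with Bag3 in clearing misfolded proteins, had 621, 777 and 1381 normalised counts at 48 hpf and 1102, 596 and 595 at 56 hpf (log2 fold change -0.26, SE 0.37, adjusted p = 0.751). *hspb11* had 86.7, 486 and 1227 normalised counts at 48 hpf and 210.1, 242 and 282 at 56 hpf, a range of 14.2-fold at 48 hpf but of 1.34-fold at 56 hpf (log2 fold change -0.62, SE 0.58, adjusted p = 0.608). Without the replicate 1 pair, *hspb1*, *hspb7* and *hspb11* passed the threshold as lower at 56 hpf, with log2 fold changes of -0.99, -1.10 and -1.56 and adjusted p of 0.0208, 0.0282 and 0.0230. Without the 48 hpf pool of that pair alone, fitted with no block, *hspb11* had -1.66 with an adjusted p of 0.0423, in a fit that called 5.54% of all genes.

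The genes *hspb2* and *hspb3*, whose products form a complex in mammalian muscle, were counted with few reads. *hspb2* had 20, 21.3 and 63.5 normalised counts at 48 hpf and 25.4, 24.6 and 32.5 at 56 hpf, and *hspb3* had 20, 76.7 and 121 normalised counts at 48 hpf and 26.4, 51.2 and 31.6 at 56 hpf. In both, replicate 3 was again the highest and replicate 1 the lowest pool at 48 hpf, and the stages overlapped (log2 fold changes of -0.14 and -0.70). In the RefSeq annotation *hspb2* lies next to the alpha-crystallin gene *cryabb* with no coding gene between them, and of the 3 alpha-crystallin genes listed only 1 had enough reads to be tested.

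*hspb6*, *hspb9* and *hspb15* were the small heat shock protein genes with a positive fold change, all at low counts. *hspb6* (ENSDARG00000077236), which encodes Hsp20, had 9.33, 9.23 and 2.54 normalised counts at 48 hpf and 40.6, 20.7 and 18.3 at 56 hpf, that is between 2 and 13 reads in a pool at 48 hpf and between 21 and 40 at 56 hpf. The stages did not overlap, and the log2 fold change of 1.85 was the largest among the members (SE 0.59, 95% interval 0.44 to 3.26, adjusted p = 0.172). edgeR's likelihood ratio test gave an adjusted p of 0.0480, and edgeR's quasi-likelihood test one of 0.203. *hspb9* had 1.33, 9.23 and 15.2 normalised counts at 48 hpf and 24.4, 23.6 and 16.6 at 56 hpf, without overlap (log2 fold change 1.61, SE 0.77, adjusted p = 0.322), but its pools at 48 hpf ranged from 1 to 13 reads. *hspb15* had 1.33, 2.13 and 11.4 normalised counts at 48 hpf and 10.1, 8.87 and 6.66 at 56 hpf, with overlapping stages (log2 fold change 1.07, SE 0.85, adjusted p = 0.542).

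At 48 hpf replicate 3 was the highest and replicate 1 the lowest pool for 8 of the 9 small heat shock protein genes, *hspb6* being the exception, and for 30 of 75 members, 40%, beside 22.7% of all genes tested. The median standard deviation of the small heat shock protein genes among the pools of 48 hpf was 0.91 on the log2 scale, beside 0.37 for all genes. At 56 hpf it was 0.34, beside 0.35 for all genes. The myocardial markers took the same order at 48 hpf in 8 of 11 genes, among them *myl7* with 34099.5, 84504 and 103877 normalised counts at 48 hpf and 48366, 46729 and 49857 at 56 hpf. As medians of the log2 deviation from each gene's mean over the 6 pools, the small heat shock protein genes stood at -0.54, -0.04 and 0.92 in replicates 1, 2 and 3 at 48 hpf and at 0.17, -0.21 and -0.09 at 56 hpf, and the myocardial markers at -0.55, 0.68 and 0.95 and at -0.23, -0.35 and -0.54. These genes and the myocardial markers thus stood together in replicates 1 and 3 of 48 hpf. They stood apart in replicate 2 of 48 hpf and in replicates 1 and 3 of 56 hpf, and nearer in replicate 2 of 56 hpf. The endocardial markers took the same order at 48 hpf in 6 of 9 genes. Their medians were -0.29, 0.24 and 0.47 at 48 hpf and -0.18, -0.25 and -0.08 at 56 hpf. They thus stood close to the small heat shock protein genes in replicates 2 and 3 of 56 hpf and apart in the other pools. The part of the myocardium and of the endocardium in the values of the small heat shock protein genes was not tested.

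**Figure D3:**
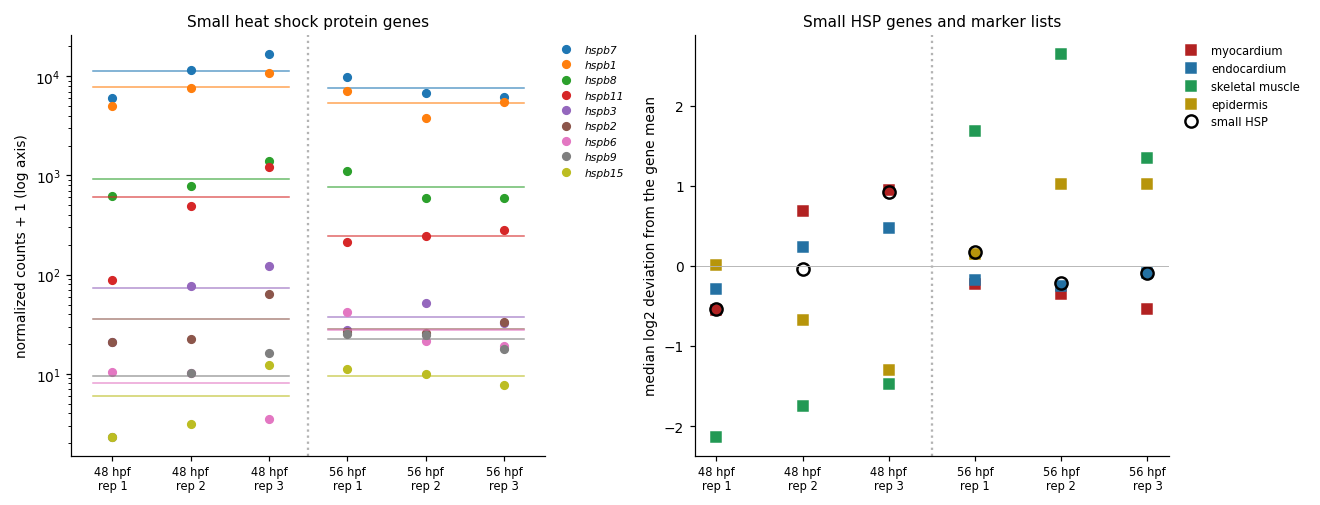
Left, normalised counts + 1 (log axis) of the small heat shock protein genes in each of the 6 pools, with bars for the mean of a stage. Right, median log2 deviation from each gene's mean for the small heat shock protein genes (open circles) and for 4 lists of marker genes (squares). The circles coincide with the myocardial squares in replicates 1 and 3 of 48 hpf at -0.54 and 0.92 but lie below them in replicate 2 of 48 hpf. At 56 hpf the circles lie close to the endocardial squares in replicates 2 and 3 but not in replicate 1.

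The mitochondrial chaperonin genes *hspd1* and *hspe1*, which encode Hsp60 and its lid Hsp10, lie side by side in the RefSeq annotation with no coding gene between. *hspd1* had 1068, 1317 and 1327 normalised counts at 48 hpf and 1132, 1661 and 1411 at 56 hpf, and *hspe1* had 624, 887 and 1089 normalised counts at 48 hpf and 570.3, 1206 and 1034 at 56 hpf. In both genes the pools took the same order within each stage, with replicate 3 highest and replicate 1 lowest at 48 hpf and replicate 2 highest and replicate 1 lowest at 56 hpf. The log2 fold changes were 0.17 (SE 0.18, 95% interval -0.26 to 0.60, adjusted p = 0.66) and 0.08 (SE 0.20, 95% interval -0.41 to 0.57, adjusted p = 0.871). The 8 members of the mitochondrion, which include *hspa9*, *dnaja3a*, *dnaja3b*, *dnajc11*, *dnajc15* and *dnajc19*, had a median of 0.10. Of these 8, 6 were positive and 0 called, beside 49.2% and 1.08% of all genes tested. *hspbp1*, whose product is an exchange factor of HSP70, had 131, 148 and 127 normalised counts at 48 hpf and 105, 184 and 104 at 56 hpf (log2 fold change -0.10, SE 0.29, adjusted p = 0.89), a sign that turned positive on the deposited scale. *hspbap1*, named for a protein that binds Hsp27, was counted with few reads and spanned 5.33, 17.0 and 30.5 normalised counts at 48 hpf and 35.5, 22.7 and 4.16 at 56 hpf (log2 fold change 0.10, SE 0.96, adjusted p = 0.968).

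The 5 DnaJ genes of type A, which encode the general partners of HSP70 in the cytosol and mitochondria, had no call. *dnaja2* had 1133, 1152 and 1189.8 normalised counts at 48 hpf and 936, 1242 and 1243 at 56 hpf, and *dnaja2l* had 1263, 1382 and 1634 normalised counts at 48 hpf and 1549, 1368 and 1653 at 56 hpf. The 5 log2 fold changes lay between -0.13 and 0.30, with a median of -0.03 that turned to 0.09 on the deposited scale. *dnaja3b*, a mitochondrial member, was the one whose stages did not overlap, with 98.7, 77.4 and 99.0 normalised counts at 48 hpf and 100.5, 127 and 111 at 56 hpf (log2 fold change 0.30, SE 0.31, adjusted p = 0.645). The gap was narrow, 100.5 in its lowest pool of 56 hpf against 99.0 in its highest of 48 hpf.

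Of the 16 DnaJ genes of type B, 15 were tested and 0 called, with a median log2 fold change of -0.21 (-0.08 on the deposited scale, and -0.34 to 0.089 when pools were left out). *dnajb1a* and *dnajb1b*, the Hsp40 genes that heat shock induces, had log2 fold changes of 0.12 and 0.28 with overlapping stages. *dnajb1a* had 299, 322 and 363 normalised counts at 48 hpf and 480.0, 242 and 383 at 56 hpf, and *dnajb1b* had 46.7, 34.1 and 41.9 normalised counts at 48 hpf and 34.5, 80.8 and 43.3 at 56 hpf. *dnajb6a* and *dnajb6b*, whose products keep unfolded proteins from aggregating, had opposite signs, -0.27 and 0.28, and the adjusted p was 0.593 and 0.563. *dnajb2* had 405, 608 and 541 normalised counts at 48 hpf and 508, 255 and 225 at 56 hpf. Its replicate 2 and 3 pools were lower at 56 hpf and its replicate 1 pool was not (log2 fold change -0.73, SE 0.35, adjusted p = 0.32), and without the replicate 1 pair its log2 fold change was -1.25 with an adjusted p of 0.0186. *dnajb13*, which encodes a protein of motile cilia and sperm tails in mammals, had 60.0, 50.4 and 54.6 normalised counts at 48 hpf and 34.5, 37.4 and 36.6 at 56 hpf. All pools at 56 hpf were below all at 48 hpf (log2 fold change -0.59, SE 0.38, adjusted p = 0.446).

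The members of the ER formed no common shift. Of 14 listed, 13 were tested, with a median of -0.07, beside -0.01 for all genes tested. Of the 13, 6 were positive and 0 called, beside 49.2% and 1.08% of all genes. The stages did not overlap for 2 of them, *hspa5* and *dnajb9b* (ENSDARG00000016886), beside 24.4% of all genes. *dnajb9b* (ENSDARG00000016886) encodes ERdj4, a partner of BiP that the unfolded protein response induces, and had 65.3, 52.5 and 104 normalised counts at 48 hpf and 208, 108 and 128 at 56 hpf. Its lowest pool at 56 hpf was just above its highest at 48 hpf, and the log2 fold change was 0.99 (SE 0.36, 95% interval 0.15 to 1.84, adjusted p = 0.211), with an unadjusted p of 0.0275. The other gene of that symbol (ENSDARG00000097601) was counted with fewer reads and had a log2 fold change of -0.21, and *dnajb9a* one of -0.21. *dnajb11*, which encodes ERdj3, had 593, 1143 and 3298 normalised counts at 48 hpf and 3657, 2048 and 1847 at 56 hpf. Replicate 1 was the lowest pool at 48 hpf and the highest at 56 hpf, with 5.56-fold between the pools of 48 hpf (log2 fold change 0.88, SE 0.57, adjusted p = 0.452). Without the replicate 3 pair its log2 fold change was 1.73 with an adjusted p of 0.0225, and without the replicate 1 pair it was 0.00. *dnajc3*, which encodes an inhibitor of the kinase Perk, had 384, 288 and 379.7 normalised counts at 48 hpf and 636, 368 and 445 at 56 hpf, higher at 56 hpf in each pair of pools with the same number but with overlapping stages (log2 fold change 0.44, SE 0.21, adjusted p = 0.33). *dnajc10*, which encodes an ER disulfide reductase, had 340.0, 396 and 320.0 normalised counts at 48 hpf and 325, 625 and 431 at 56 hpf (log2 fold change 0.34, SE 0.23, adjusted p = 0.467). The other tested members of the ER, *hspa13*, *dnajb12a*, *dnajb12b* (ENSDARG00000087473), *dnajb14* and *dnajc1*, had log2 fold changes of -0.12, -0.10, -0.32, -0.12 and -0.07.

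**Figure D4:**
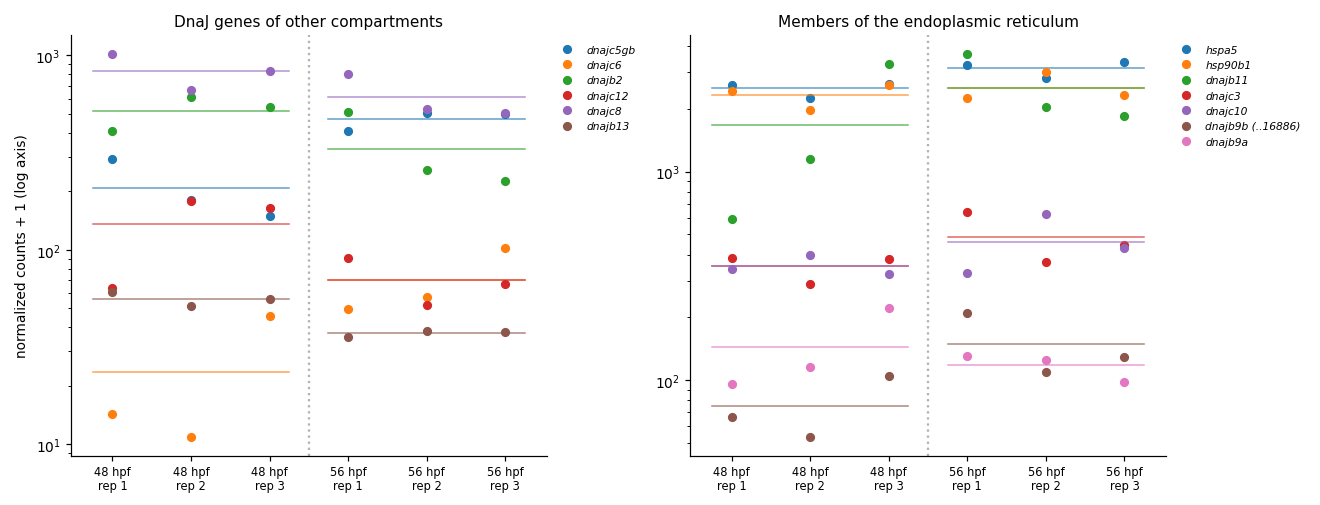
Normalised counts + 1 (log axis) in each of the 6 pools for some DnaJ genes outside the ER (left) and some members of the ER (right). Bars mark the mean of a stage. The ER panel holds every tested member with a positive fold change but, of those with a negative one, *dnajb9a* alone. The stages of *dnajc5gb*, *dnajc6* and *dnajb13* and of *hspa5* and *dnajb9b* (ENSDARG00000016886) do not overlap, while *dnajb11* ranges from 593 to 3298 at 48 hpf.

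Of the 26 DnaJ genes of type C, which keep the J domain and otherwise differ in build, 25 were tested and 0 called, and the median log2 fold change was 0.01 (0.13 on the deposited scale). *dnajc5gb* (ENSDARG00000017687) had 293, 179.7 and 149 normalised counts at 48 hpf and 408, 503 and 499 at 56 hpf. It is a gene of the cysteine string protein family, whose best-known member guards synaptic vesicles. The pools at 56 hpf were all above those at 48 hpf, and the log2 fold change was 1.23 (SE 0.30, 95% interval 0.53 to 1.94, adjusted p = 0.101), with the smallest p of the members, 0.00446 before adjustment. The adjusted p was 0.116 by edgeR's quasi-likelihood test, 0.00986 by edgeR's likelihood ratio test and 0.0113 by DESeq2. Without the replicate 1 pair the log2 fold change was 1.61 with an adjusted p of 0.0119, and without the 48 hpf pool of that number alone, fitted with no block, it was 1.51 with an adjusted p of 0.0156. Its relatives had smaller fold changes. *dnajc5aa*, *dnajc5ab*, *dnajc5b* and *dnajc5ga* had log2 fold changes of 0.01, -0.18, 0.24 and 0.21, each with overlapping stages, and the differences between the genes were not tested.

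*dnajc6*, which encodes auxilin and strips the clathrin coat from vesicles, was singled out after its values were seen. It had 13.3, 9.94 and 44.4 normalised counts at 48 hpf and 48.7, 56.1 and 102 at 56 hpf. The highest pool at 48 hpf was close to the lowest at 56 hpf, and replicates 1 and 2 of 48 hpf rested on 10 and 14 reads. The log2 fold change was 1.78 (SE 0.45, 95% interval 0.73 to 2.84, adjusted p = 0.108). It was higher at 56 hpf by edgeR's likelihood ratio test (adjusted p = 0.00869) and by DESeq2 (0.0269), and not past the threshold by edgeR's quasi-likelihood test (0.126). Without replicate 3 of 48 hpf, fitted with no block, it passed, as did 2.32% of all genes tested.

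The type C genes with the lowest fold changes were *dnajc12* and *dnajc8*. *dnajc12*, whose product assists aromatic amino acid hydroxylases in humans, had 62.7, 177 and 163 normalised counts at 48 hpf and 89.3, 51.2 and 65.7 at 56 hpf. Replicate 1 of 48 hpf lay within the range of 56 hpf and the other pools of 48 hpf lay above it (log2 fold change -0.85, SE 0.48, adjusted p = 0.386), and without the replicate 1 pair the log2 fold change was -1.53 with an adjusted p of 0.0371. *dnajc8*, whose product is associated with splicing factors, had 1013, 665 and 827 normalised counts at 48 hpf and 801, 532 and 506 at 56 hpf. It was lower at 56 hpf in each pair of pools with the same number, while the stages overlapped (log2 fold change -0.46, SE 0.19, adjusted p = 0.275). *dnajc5ab* and *dnajc8* had the highest mean counts of the type, and *dnajc5ab* had 1236, 1483 and 1522 normalised counts at 48 hpf and 1479.6, 1143 and 1134 at 56 hpf. The other type C genes, among them *dnajc2* of the ribosome, *dnajc7* of the HSP70 and HSP90 system, the histone chaperone gene *dnajc9* and *dnajc19* of the mitochondrial import motor, had log2 fold changes between -0.38 and 0.46. *dnajc22* was counted only in replicate 1 of 56 hpf, with 5 reads, and had 0 in the other pools.

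**Figure D5:**
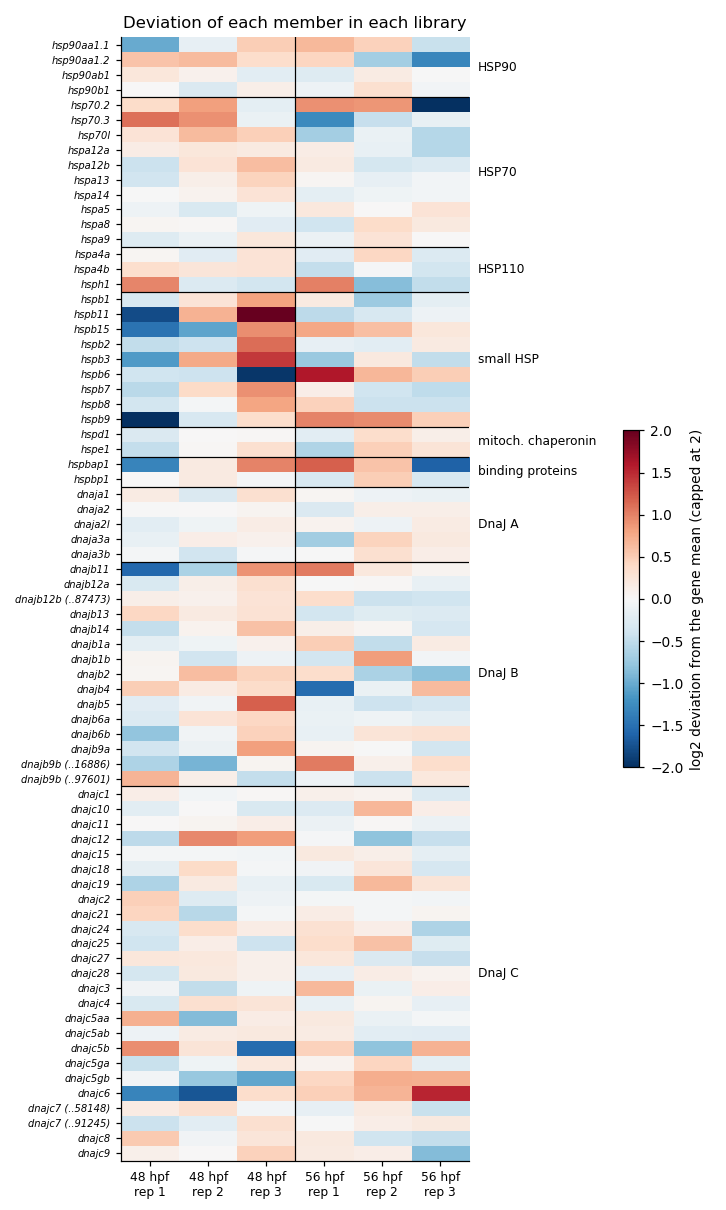
Log2 deviation of each of the 75 members from its mean over the 6 pools (colour, capped at 2), with members in rows by class and pools in columns. The small heat shock protein genes are mostly high in replicate 3 and low in replicate 1 of 48 hpf, and no class is of 1 colour at 48 hpf and of the other at 56 hpf.

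Among the partners of these chaperones, *fkbp5* rose and *pdia2* fell. The 21 tested co-chaperones of HSP90 had a median of -0.07, with 10 positive, beside 49.2% of all genes tested. Past the threshold, 1 was higher at 56 hpf and 0 lower, beside 0.87% and 0.211% of all genes. This was *fkbp5*, which encodes an immunophilin that binds HSP90 in steroid receptor complexes and is itself induced by glucocorticoids, with 356, 347 and 335 normalised counts at 48 hpf and 961, 3848 and 3597 at 56 hpf. The pools at 56 hpf were all above those at 48 hpf, with replicates 2 and 3 much above replicate 1, and the log2 fold change was 2.77, SE 0.41, adjusted p = 0.0381. The adjusted p was 0.0553 by edgeR's quasi-likelihood test and 0.135 without the replicate 2 pair. Fitted with no block, it was 0.0896 without replicate 2 of 48 hpf, 0.106 without replicate 2 of 56 hpf and 0.103 without replicate 3 of 56 hpf. Its paralogue *fkbp4* had 688, 787 and 556 normalised counts at 48 hpf and 915, 1338 and 1210.0 at 56 hpf, without overlap between the stages (log2 fold change 0.77, SE 0.21, adjusted p = 0.13). The myosin chaperone gene *unc45b* and its partner *smyd1b*, a methyltransferase of striated muscle, had log2 fold changes of -0.32 and -0.93, with adjusted p of 0.614 and 0.0894, and *smyd1a*, with 8 to 20.6 normalised counts at 48 hpf and 48.3 to 84.2 at 56 hpf, had one of 2.04 with an adjusted p of 0.117. The skeletal muscle markers had a median log2 fold change of 3.98, with 20 of 22 positive. Their summed level was between 15064 and 32451 normalised counts at 48 hpf and between 32765 and 44792 at 56 hpf. *acta1a*, *acta1b* and *ckma* had the highest counts of the list at 48 hpf, with log2 fold changes of 0.10, -0.30 and -0.003. The sum thus rests largely on these genes and understates the difference of most markers. The epidermal markers summed to 402966, 321035 and 148358 normalised counts at 48 hpf and to 440484, 760034 and 716250 at 56 hpf. At 56 hpf this sum was lowest in replicate 1, as was *fkbp5*. At 48 hpf it fell from replicate 1 to replicate 3, where *fkbp5* stayed nearly level. The part of muscle and of epidermis in the values of the partner genes was not tested.

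The ER folding and unfolded protein response list had the highest median of the partner lists, 0.45, with 16 of 19 positive, beside 49.2% of all genes tested. Of its genes 0 were higher and 1 lower past the threshold, beside 0.87% and 0.211% of all genes. With an unadjusted p below 0.05 in the limma fit, 7 were higher and 1 lower, beside 11.1% and 7.42% of all genes. The gene that fell was *pdia2*, a protein disulfide isomerase made mainly in the pancreas in humans, with 57.3, 107 and 207 normalised counts at 48 hpf and 2.03, 16.7 and 7.49 at 56 hpf. The log2 fold change was -3.83, SE 0.55, adjusted p = 0.0351, and the adjusted p was 0.0760 without the replicate 2 pair and 0.0533 with reads thinned to the smallest library. Fitted with no block, it was 0.133 and 0.0641 without replicates 2 and 3 of 48 hpf and 0.0536 and 0.119 without replicates 2 and 3 of 56 hpf. *xbp1*, a transcription factor of the unfolded protein response, had 1847, 2313 and 2056 normalised counts at 48 hpf and 2355, 5033 and 4866 at 56 hpf, with all pools of 56 hpf above those of 48 hpf (log2 fold change 0.90, SE 0.24, adjusted p = 0.118). *manf* and *creld2*, which encode secreted targets of that response, had log2 fold changes of 0.85 and 0.68, without overlap between the stages and with adjusted p of 0.161 and 0.196.

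The heat shock factors and the remaining partners held no call. *hsf1*, the factor that induces heat shock genes, had 991, 883 and 681 normalised counts at 48 hpf and 754, 539.8 and 697 at 56 hpf, with overlapping stages (log2 fold change -0.36, SE 0.22, adjusted p = 0.419). *hsf2* had a log2 fold change of -0.05, which turned to 0.07 on the deposited scale, *hsbp1a* and *hsbp1b*, which encode proteins that bind Hsf1, had -0.38 and 0.30, and *hsf4* and *hsf5* had too few reads to test. Of 13 co-chaperones and exchange factors of HSP70, 8 were positive and 0 called, beside 49.2% and 1.08% of all genes tested, and the median was 0.12. *bag3*, the partner of *hspb8*, had 153, 203 and 244 normalised counts at 48 hpf and 186, 126 and 149 at 56 hpf (log2 fold change -0.37, SE 0.30, adjusted p = 0.545). Of 14 genes of the TRiC chaperonin, which folds actin and tubulin, and of prefoldin, 3 were positive, all of prefoldin, and 0 were called. The shares of all genes tested were 49.2% positive and 1.08% called, and the median of the 14 was -0.21.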

How the data were processed

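RNA was sequenced from 3 pools of hearts at each stage. Per the methods, the authors mapped reads on Zv9, retained those with a unique position and counted them with HTSeq on Ensembl genes, without stating whether strand was used, so overlapping genes are uncertain. The submitters' processing notes name CASAVA 1.8.2, Bowtie2 2.1.0, HTSeq 0.5.4p3 and DESeq 1.10.1. The aligner and the HTSeq version differ from those of the methods. Whether the rule of unique positions holds for the deposited values is thus not known. The deposited values are a signal, the read count of a gene divided by a size factor of its library. Divided by the value of 1 read, 100% of the values in every library gave whole numbers (within 0.001). Gene names come from the files, and 67 of 77 identifiers matched a current name table, 16 of them with exactly the same symbol. Some others differed in capitals alone, as DNAJB11 for *dnajb11*. Some differed in the symbol itself, as HSPA2 for *hsp70.2* and *dnajc3a* for *dnajc3*.

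Size factors were computed from the 6 libraries as medians of ratios, genes were kept by filterByExpr (minimum count 10, minimum total 15), and log2(normalised count + 1) was compared with limma 3.58.1 in R 4.3.3, with a trend and the replicate number as a block, since the methods adjust for differences between experiments. That the number is the experiment is an inference. Benjamini-Hochberg adjustment ran over all genes tested (threshold 0.05). Count tests used edgeR 4.0.16 and DESeq2 1.42.0. Pools of a stage differed by more than counting error, with a chi-square of 25.4 to 99.6 per gene, so each was counted as a sample. The fit was tested on simulated data in which the altered genes differed 4-fold between the stages. It found 66.7% of those genes. Among the genes it called, 11.6% had not been altered, a larger share than the threshold allows. The simulated counts varied independently for each gene, with no differences between replicates or tissues shared across genes. The share of false calls in the real pools is thus not known. Genes just past the threshold, *fkbp5* and *pdia2* among them, may be less certain than their adjusted p states. The fitted changes of all members were smaller than 4-fold, with log2 fold changes from -1.26 to 1.85. Changes of that size were not simulated, so the test does not show how many of them the fit would find.

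The members and the lists were chosen with earlier results of these data known. Genes named are every member past the threshold, the inducible *HSP70* genes, *hspa8*, every *HSP90*, *HSP110* and small heat shock protein gene, the 2 members of each class with the highest mean, up to 5 rises and 5 falls with an unadjusted p below 0.05 and at least 50 reads in every pool of the higher stage, the heat shock factors and partners past the threshold. Other genes named were chosen after their values were seen. The division into ER and mitochondrial members follows textbook locations.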

Additional observations from a re-analysis of the deposited data

How the results depend on the processing

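The number of all genes past the threshold, 225, was 346 with no filter on low counts, 137 with at least 10 counts in every sample, 560 with no replicate block, 516 by edgeR's quasi-likelihood test with no block, 1741 by its likelihood ratio test, 1503 by DESeq2 and 27 at a threshold of 0.01. Leaving out pools gave 53 to 2271. The members called numbered 3 by the likelihood ratio test, 2 by DESeq2, 0 to 8 when pools were left out, and 0 under the other alternatives, the fit with no replicate block included. The deviations of same-numbered pools correlated at 0.03, 0.19 and -0.05 across genes, so the data do not show that the numbers pair the pools, and in the limma fit leaving out the block changed no call among the members or of *fkbp5* and *pdia2*. By edgeR's quasi-likelihood test, *fkbp5* had an adjusted p of 0.0553 with the block and of 0.0161 without it.

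Of 33 named members, 18 never changed sign. On the deposited scale the log2 fold changes of *hspa4a* (0.063), *hsp90ab1* (0.056), *hspbp1* (0.031), *dnaja2* (0.093), *dnajb12a* (0.030) and *hsf2* (0.074) turned positive, and with reads thinned to the smallest library that of *hspbap1* was -0.022. The median of all genes tested moved on the deposited scale as well, from -0.01 to 0.11. The cause of the change in *hspbap1* was not tested. Leaving out pools gave ranges that cross zero, of -0.41 to 0.18 for *hspa4a*, -0.79 to 0.20 for *hsph1*, -1.32 to 0.57 for *hsp70.2*, -0.051 to 0.38 for *hspa8*, -0.16 to 1.13 for *hsp90aa1.1*, -0.21 to 0.13 for *hsp90ab1*, -0.14 to 0.24 for *hsp90b1*, -1.66 to 0.23 for *hspb11*, -0.42 to 0.38 for *hspb2*, -0.80 to 0.22 for *hspb8*, -0.14 to 0.40 for *hspe1*, -0.36 to 0.045 for *hspbp1*, -1.11 to 1.46 for *hspbap1*, -0.10 to 0.10 for *dnaja2*, -0.29 to 0.089 for *dnajb12a* and -0.28 to 0.14 for *hsf2*. The median log2 fold change also crossed zero when pools were left out, from -0.14 to 0.089 for all members, -0.14 to 0.11 for *HSP90*, -0.80 to 0.23 for the small heat shock protein genes, -0.046 to 0.36 for the mitochondrial chaperonin, -0.55 to 0.73 for the binding proteins, -0.10 to 0.10 for DnaJ type A, -0.34 to 0.089 for type B, -0.081 to 0.095 for type C, -0.19 to 0.052 for the HSP90 co-chaperones, -0.0081 to 0.14 for those of HSP70 and -0.42 to 0.096 for TRiC and prefoldin. Depth limits the low genes, among them *hsp70.2*, *hsp70.3*, *hspb6*, *hspb9*, *hspb15*, *dnajc5b* and *hspbap1*, which had fewer than 5 reads in at least 1 pool. With at least 10 counts in every sample no alpha-crystallin gene was left to test.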
